A study of Mus musculus with 2 samples.

Results

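The cytosolic ribosomal protein genes were examined for TET2 peaks at their promoters in adipocytes differentiated in culture. Members were the protein-coding genes of the GENCODE M21 annotation whose symbols begin with Rpl or Rps followed by a number, without the Rps6k kinase genes, together with Rplp0, Rplp1, Rplp2 and Rpsa. This rule selected 86 of 21951 coding genes, of which 77 are the canonical ribosomal protein genes and 9 are paralogues or look-alike symbols. The rule used no measured value. A TET2 peak was counted at a promoter when its midpoint lay within 1 kb of any annotated transcription start site (TSS) of the gene.

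Chromatin immunoprecipitation sequencing (ChIP-seq) measured where TET2 is found on DNA, with 1 TET2 library and 1 input library, the latter being chromatin sequenced without antibody. Both came from mouse adipose-derived stem cells of inguinal white adipose tissue, taken from the stromal vascular fraction, grown to passage 3 and induced with IBMX, dexamethasone and insulin, followed by maintenance in insulin. The labels name no genotype, strain, age or further treatment, and how many animals contributed cells is not given in the sources used here. The cells are in vitro adipocytes, and no expression values were part of these data, so the cell type could not be checked against marker genes here. The deposited list held 14103 peaks, each with the −log10 p that the peak caller MACS2 gave it against the input. Without replicate libraries, no difference between genes could be tested, and every interval below covers counting error only.

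TET2 is a dioxygenase that oxidises 5-methylcytosine to 5-hydroxymethylcytosine, and it reaches DNA through partner proteins because it has no CXXC DNA-binding domain of its own. Ribosomal proteins assemble with ribosomal RNA into the large and the small subunit. Their genes are transcribed at high rates in nearly every cell from short, CpG-rich promoters, and their mRNAs begin with a tract of pyrimidines (the 5′ terminal oligopyrimidine, or TOP, motif) through which mTOR signalling and LARP1 control translation. They are also known for their many intronless copies in mammalian genomes, the processed pseudogenes.

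The start sites of members with and without a TET2 peak are printed first to show that a start site of the same kind occurs with and without a peak. They were chosen among the members with a pyrimidine tract, which 6 of the 24 members with a peak and 24 of the 62 without one have. Shown are 40 bases before and 20 bases from the start of the principal transcript (the main TSS), read along the gene in GRCm38. Capitals mark the pyrimidine tract only from the C near the main TSS at which it was counted. The run of pyrimidines can begin further upstream, in lower case, as in Rpl19, Rpl31, Rpl34 and Rpl37a. Rpl19 (chr11:98026884-98026943 (plus strand)), Rpl31 (chr1:39367802-39367861 (plus strand)) and Rpl34 (chr3:130730318-130730377 (minus strand)) are the 3 canonical members with a tract and the largest peak values. Rplp1 (chr9:61914523-61914582 (minus strand)) and Rpl37a (chr1:72711250-72711309 (plus strand)) are the 2 canonical members with a tract, no promoter peak and the highest CpG ratio.
Rpl19: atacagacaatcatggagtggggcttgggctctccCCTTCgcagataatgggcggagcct
Rpl31: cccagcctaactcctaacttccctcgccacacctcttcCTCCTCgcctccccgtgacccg
Rpl34: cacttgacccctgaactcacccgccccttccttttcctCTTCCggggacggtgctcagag
Rplp1: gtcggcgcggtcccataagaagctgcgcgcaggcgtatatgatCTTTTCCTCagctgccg
Rpl37a: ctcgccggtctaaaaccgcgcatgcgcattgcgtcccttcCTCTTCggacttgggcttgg

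The next stretches are the central 100 bases of the 4 largest member peaks whose centres hold no annotated UTR, with each CpG in capitals, because CpG is the substrate context of TET2. They lie at chr11:98027052-98027151 (plus strand) in Rpl19, chr12:66284132-66284231 (minus strand) in Rpl10l, chr9:66946421-66946520 (plus strand) in Rps27l and chr11:114668891-114668990 (plus strand) in Rpl38. They held 13, 7, 8 and 5 CpGs, respectively. Those of Rpl19 and Rps27l are in intron 1, and those of Rpl10l and Rpl38 overlap coding sequence.
Rpl19: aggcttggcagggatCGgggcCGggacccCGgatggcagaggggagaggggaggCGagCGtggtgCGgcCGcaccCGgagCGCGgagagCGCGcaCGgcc
Rpl10l: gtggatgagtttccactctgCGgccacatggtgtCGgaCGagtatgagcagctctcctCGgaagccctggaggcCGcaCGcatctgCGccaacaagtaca
Rps27l: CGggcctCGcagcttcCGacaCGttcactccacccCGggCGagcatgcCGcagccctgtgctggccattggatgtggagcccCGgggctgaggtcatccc
Rpl38: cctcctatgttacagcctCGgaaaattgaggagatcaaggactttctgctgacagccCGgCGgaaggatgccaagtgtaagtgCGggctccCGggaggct

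TET2 peaks were found at the promoters of 24 of the 86 genes, or 27.9% (exact 95% binomial interval 18.8 to 38.6%). The share among all coding genes was 24.6% (5391 of 21951). The background is different once CpG content is considered, because peaks were more frequent at CpG-rich promoters and ribosomal protein promoters are CpG-rich. The observed-to-expected CpG ratio within 500 bp of the main TSS had a median of 0.807 in the members and of 0.563 in the other coding genes. With all other coding genes weighted to the members' CpG ratios in 20 equal groups (the standardised share), 39.5% would carry a peak, which corresponds to 34.0 genes where 24 were observed. Among the 4227 other coding genes with a CpG ratio within the interquartile range of the members (0.737 to 0.880), called genes of like CpG ratio below, 1784 had a peak, or 42.2%. In the 7 most CpG-rich groups, 23 of 75 members had a peak (30.7%), against 41.9% of 7608 other coding genes.

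**Figure D1:**
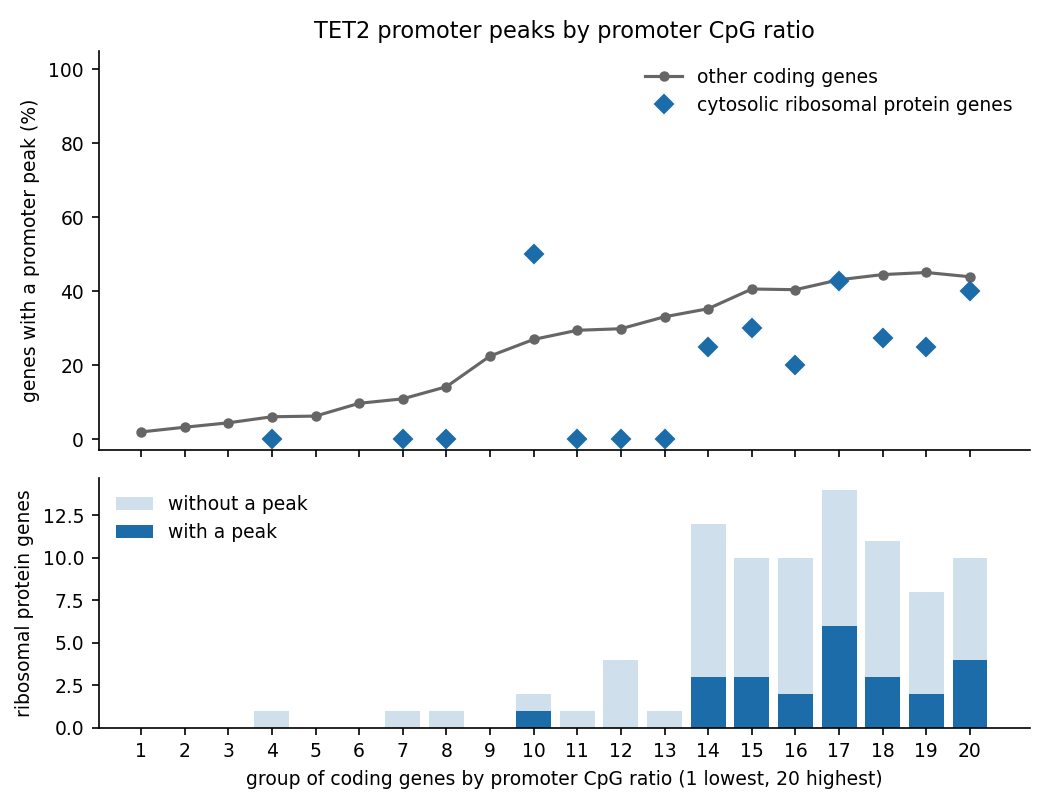
Upper panel, percentage of genes with a TET2 promoter peak (y axis) in 20 equal groups of coding genes ordered by promoter CpG ratio (x axis), with the other coding genes as a line and the cytosolic ribosomal protein genes as diamonds. Lower panel, number of ribosomal protein genes in each group with (dark) and without (light) a peak. In groups 14 to 20, which hold 75 of the 86 members, every diamond sits below the line.

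The size of this shortfall depended on what the promoters were matched for. The members have a lower GC content than other promoters of like CpG ratio, with a median of 57.0% within 500 bp of the main TSS against 62.2% in the genes of like CpG ratio. Standardising on CpG ratio and GC content together gave 34.6%, and on CpG ratio and gene length together 34.6%. Both lie within the members' interval. Standardising on GC content alone gave 29.3%, close to the observed 27.9%. These 3 standardisations were added after the CpG result had been seen. The members' share was thus below the share standardised on CpG ratio by more than its counting interval, and within that interval of the shares that took in GC content or gene length.

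The canonical genes and the other symbols differed in their counts. Of the 77 canonical genes, 19 had a promoter peak (24.7%, 15.6 to 35.8%), against 40.4% standardised on CpG ratio and 35.5% on CpG ratio and GC content. Large-subunit genes carried a peak in 13 of 46 cases (28.3%, 16.0 to 43.5%) and small-subunit genes in 6 of 31 (19.4%, 7.45 to 37.5%), and these intervals overlap. The standardised shares on CpG ratio were 40.2% and 40.7%. Of the 9 other symbols, 5 had a peak (55.6%, 21.2 to 86.3%), against 31.6% standardised, an interval too wide to separate them from the canonical genes.

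Values of the members' peaks were moderate. They ran from 5.00 to 9.66 on the −log10 p scale with a median of 6.55, against a median of 6.94 for the largest promoter peak of each of 5367 other coding genes and 7.05 for those of like CpG ratio. None of the 24 reached 10 (0%, 0 to 14.2%), while 11.1% of the other coding genes' peaks did, a share within that interval. Over all coding genes, 2.71% had a promoter peak of at least 10, and the standardised share was 4.44%, just above 4.20%, the upper bound of the exact interval for 0 of 86. That 0 leaves out Rpl7, whose peak of 13.1 was centred 1060 bp from its TSS, just outside the 1 kb limit. Rpl7 is counted when any base of the peak may lie within 1 kb, so this comparison rests on where the limit was drawn. At the low end, all 24 were at or above 5 (100%, 85.8 to 100%), the value reached by 89.9% of the other genes' peaks, also within the interval. The count of 24 was therefore the same at that threshold (27.9% against 22.1% of all coding genes and 35.5% standardised). Each of the 24 genes had exactly 1 promoter peak (0% with several, 0 to 14.2%). Of the other genes with a peak, 4.99% had several, a share within that interval. The peaks were also short, with a median of 396.5 bp against 468 bp.

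**Figure D2:**
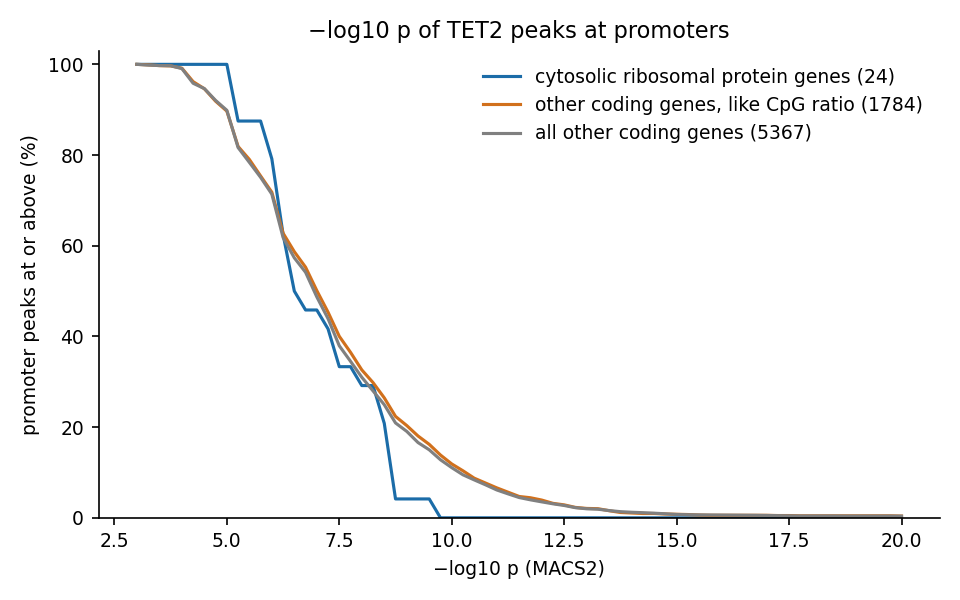
Percentage of promoter peaks (y axis) at or above each −log10 p (x axis, MACS2 against input) for the cytosolic ribosomal protein genes, the other coding genes of like CpG ratio and all other coding genes. The member curve stays at 100% up to 5 and falls to 0 below 10, where 11.1% of the other coding genes' peaks remain.

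Among large-subunit genes, the peak with the highest value was at Rpl19, which encodes eL19 of the large subunit. It had a −log10 p of 9.66 and spanned chr11:98026905-98027300, from 19 bp before to 376 bp after the main TSS, with its midpoint 178 bp downstream in intron 1. Of all 14103 peaks, 10.7% had a larger value. No other gene starts within 1 kb of it. Rplp0, whose product P0 anchors the ribosomal stalk and which is a common reference gene in qPCR, had a peak of 8.64 at chr5:115559244-115559828. Its midpoint lay 69 bp downstream of the main TSS in the untranslated part of exon 1, so this peak sat directly over the start site. The peak of Rpl13a, a further large-subunit gene, had a value of 8.56 at chr7:45128467-45128863, with its midpoint 96 bp downstream in intron 1.

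Of the remaining large-subunit genes, Rpl15 had a peak of 8.28 at chr14:18271085-18271484, centred 255 bp upstream of its main TSS and closer to the start of the neighbouring gene Nkiras1. Rpl38, known from mouse tail and skeletal patterning, had 7.91 with the midpoint 393 bp downstream in exon 3. Rpl7a followed with 7.34 at 264 bp in exon 2, within 1 kb of the start of Med22. Both peaks lay wholly downstream of the main TSS. Rpl13 and Rpl31 had 6.47 each, centred 255 and 355 bp downstream. Rpl34 had 6.21 at 356 bp, Rpl8 5.89 at 419 bp and Rpl14 5.78 at 208 bp. Rpl4 had 5.19, centred 567 bp upstream and nearer to the start of Zwilch, a kinetochore gene. Rpl5, whose product binds MDM2 together with RPL11 and the 5S RNA, had the lowest value of all members, 5.00, at chr5:107900602-107900976 with its midpoint 287 bp downstream in intron 1.

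Of the small-subunit genes, Rps3a1 had the highest value, 8.68, at chr3:86142510-86142986. Its midpoint was 46 bp upstream of the only annotated TSS, and the noncoding gene Gm37933 starts within 1 kb. Rps25 followed with 7.05, centred 645 bp downstream in intron 1 and within 1 kb of the start of Trappc4. Rps20 had 6.63 at 212 bp, Rps7 6.21 at 383 bp and Rps21 6.04 at 88 bp. All 6 small-subunit peaks but that of Rps3a1 were centred downstream of the main TSS.

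Of the paralogues and look-alikes, Rpl10l had a value of 8.51 at chr12:66283968-66284397. Rpl10l is an intronless copy of Rpl10 known for its use in the testis, and the midpoint lay 219 bp downstream within its coding sequence. Rps27l, a paralogue of Rps27 known as a p53 target, had 8.46 at chr9:66946172-66946770, centred 385 bp downstream in intron 1. Rps19bp1, which encodes a binding partner of RPS19 and no ribosomal protein, had 7.34 at 193 bp. Rpl39l, a paralogue of Rpl39, had 6.21 at 91 bp and Rpl22l1, a paralogue of Rpl22, had 5.13 at 260 bp. The parent genes Rpl10, Rps27, Rpl39 and Rpl22 had no promoter peak, and their nearest peaks were 41376, 40795, 35655 and 9638 bp from any of their start sites, respectively. These parents were looked up because their paralogues had a peak, and 62 of all 86 members had no promoter peak. Whether paralogues and parents differ was not tested.

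**Figure D3:**
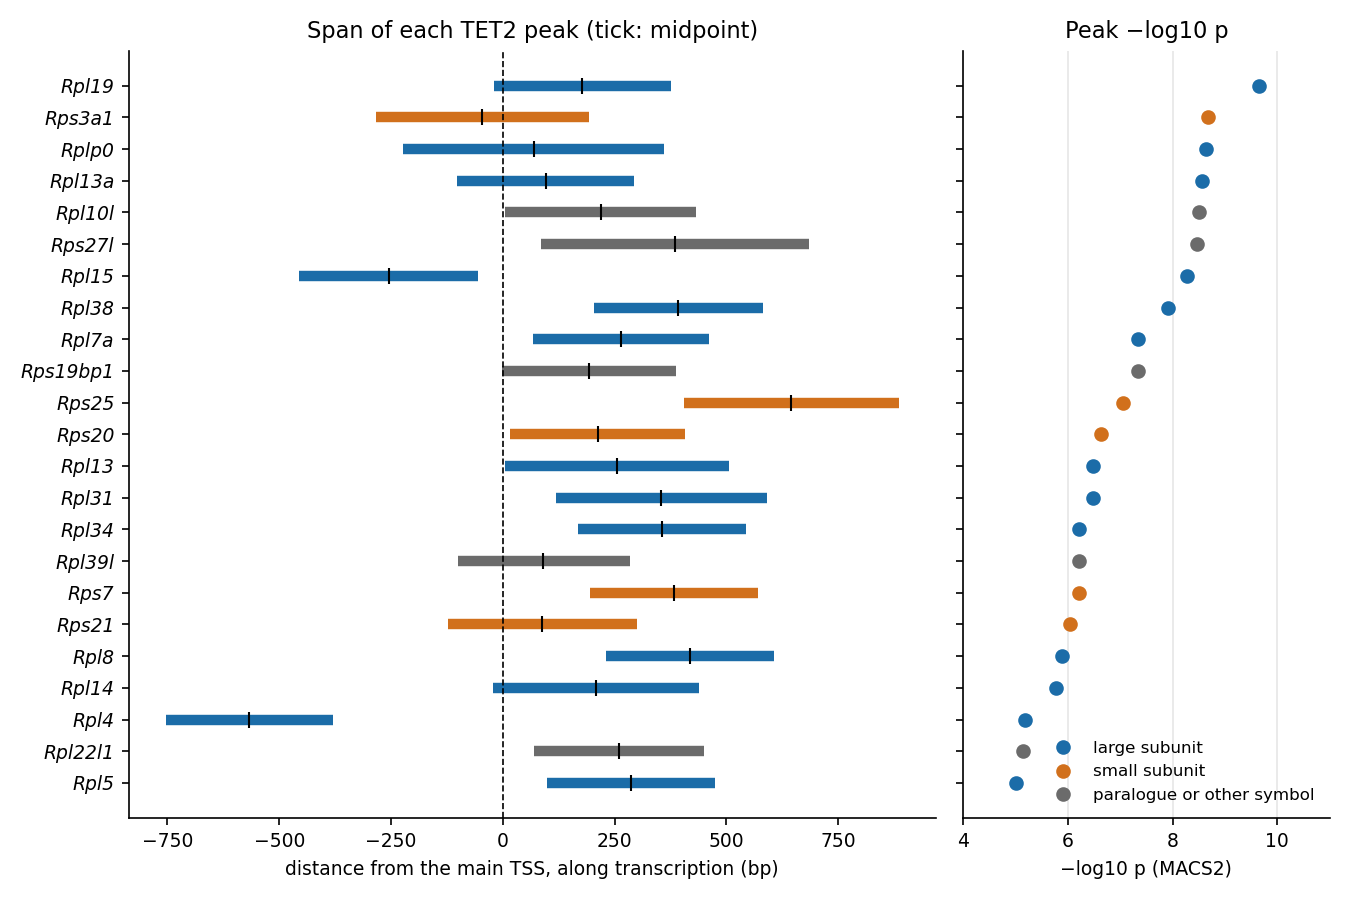
Left, span of 23 of the 24 TET2 peaks (bar) and its midpoint (tick) relative to the main TSS of the gene, in bp along the direction of transcription. Right, the −log10 p of the same peaks. Genes are ordered by that value and coloured by large subunit, small subunit and other symbols. Of the midpoints drawn, 20 lie to the right of the start site.

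Peak positions were compared from the main TSS and from the nearest TSS of the gene. Midpoints were downstream of the main TSS in 21 of 24 genes (87.5%, 67.6 to 97.3%), against 73.5% of the other coding genes with a peak. The median offset was 237 bp, compared with 198 bp. The peak covered the main TSS in 8 of 24 genes (33.3%, 15.6 to 55.3%), against 42.6% of the other genes and 49.6% of those of like CpG ratio. The shares of the other genes for both measures lie within the members' intervals. In these 8 genes (Rpl19, Rps3a1, Rplp0, Rpl13a, Rps19bp1, Rpl39l, Rps21 and Rpl14) the peak spanned the start itself, whereas in 14 others it began after it. Midpoints fell in intron 1 in 13 of 24 genes (54.2%, 32.8 to 74.4%), against 23.6% of the other genes, and in exon 1 in 3 (12.5%, 2.66 to 32.4%), against 38.6%. Measured from the nearest annotated TSS of the gene instead, the median offset was 81 bp, against 86 bp in the other genes. The members with a peak have a median of 4.5 annotated start sites, and their first introns are short, with a median of 247 bp against 5140 bp in other genes of like CpG ratio with a peak.

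Neighbouring genes start close to many of these peaks. A TSS of another gene lay within 1 kb of the midpoint for 11 of 24 members (45.8%, 25.6 to 67.2%), against 30.4% of the other genes. For 4 of them, Rpl15, Rpl7a, Rps25 and Rpl4, the neighbour was coding, and for Rpl15 and Rpl4 it was nearer than the member itself. The other neighbours were noncoding, among them the small nucleolar RNA gene Snord68 in Rpl13. When genes whose peak lay within 1 kb of another gene's start were set aside, 13 of 75 members had a peak (17.3%, 9.57 to 27.8%), against 30.0% of other coding genes standardised in the same way.

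The sequence under the peaks was CpG-rich and mostly single-copy. GC content of the 24 peaks ranged from 56.2 to 73.2% with a median of 65.1%, and their CpG ratio had a median of 0.887. The medians were 66.3% and 0.797 in the other coding genes' peaks, and 67.5% and 0.846 in those of like CpG ratio. The members' peaks held 22 to 57 CpGs each, with a median of 9.52 per 100 bp against 9.49 in peaks of genes of like CpG ratio. Their median repeat-masked share was 0, with a highest value of 12.1%. That median was 3.22% in the other coding genes' peaks and 1.96% in those of like CpG ratio. For 19 of the 24 peaks, blastn found no other place in the genome with 100 bp or more at 90% identity or more. The 5 peaks with such matches included those of Rpl7a (45 matches), Rpl31 (27), Rpl13 (18) and Rpl10l (1). In the windows of 500 bp on each side of the main TSS, 42 of the 62 members without a peak (67.7%) and 13 of the 24 with one (54.2%) had no such match elsewhere. Reads from repeated sequence can be lost or shared in alignment, and the part this plays in the missing peaks was not tested.

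Of the 62 members without a promoter peak, the nearest midpoint was over 10 kb from every start site in 44 (71.0%), and within 3 kb in 3 (4.84%). In other coding genes of like CpG ratio without a promoter peak, the shares were 78.6% and 6.06%. Just outside the 1 kb limit was Rpl7, with a peak of 13.1 centred 1060 bp from its TSS. Measured to the nearest annotated TSS of the gene, the farthest midpoint inside the limit was that of Rpl4, 567 bp away. Rpl18 and Rpl35 had peaks of 4.82 and 5.32 at 2193 and 2662 bp. With a 3 kb window, 27 of 86 members had a peak (31.4%, 21.8 to 42.3%), against 28.5% of all coding genes and 43.3% standardised. Rpl7l1, a paralogue of Rpl7, was the only member with a peak in the gene body and none at a promoter (−log10 p of 4.0). At the other extreme, the nearest peak to Rps23 was 817156 bp from its start sites.

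Several well-known members were among those without a promoter peak. Rpsa, which encodes the small-subunit protein uS2 and the laminin receptor precursor, had its nearest midpoint 19819 bp away from any start site. For the acidic stalk proteins Rplp1 and Rplp2, the distances were 64991 and 4456 bp. Of the 3 stalk genes, Rplp0 had a peak (33.3%, 0.840 to 90.6%), against 43.2% standardised on CpG ratio, a share within that interval. Rpl11, the partner of RPL5 in MDM2 binding, was 41723 bp from the nearest midpoint. For Rps6, the target of S6 kinase, the distance was 17184 bp, and for Rps19, the gene most often mutated in Diamond-Blackfan anaemia, 23856 bp. A high CpG content did not go with a peak in every case. The 3 members without one and with the highest CpG ratio were Rpl36al (1.03), Rplp1 (0.989) and Rpl37a (0.979), where the highest ratio of a member with a peak was 1.02.

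Members were unevenly spread over chromosomes. Chromosome 7 holds 14 of them, of which only Rpl13a had a peak (7.14%, 0.181 to 33.9%), against 18.2% of the other coding genes of that chromosome and 41.7% standardised on the members' CpG ratios. None of the 8 members on chromosome 17 had one (upper bound 36.9%), where 22.0% of the other coding genes did, and none of the 4 on chromosome X (upper bound 60.2%), where 6.99% did. On chromosome 3 the count was 3 of 4 (19.4 to 99.4%), against 25.4% of the other coding genes, and on chromosome 9 it was 4 of 8 (15.7 to 84.3%), against 28.9%. With so few genes a chromosome, these intervals take in the shares of the other coding genes. For chromosome 7 the standardised 41.7% lies above the interval. The standardised shares for chromosomes 17, X, 3 and 9 (32.0, 34.4, 44.2 and 37.6%) lie within theirs. The 1, 4, 1 and 2 members on chromosomes 6, 10, 13 and 18 had no promoter peak either. Shares were taken for every chromosome with a member, and among so many intervals some can miss by counting error alone. Without the X-linked genes, a setting added after the data were seen, the share was 29.3% (24 of 82), against 40.3% standardised.

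Members with and without a peak were next compared for features of their promoters. The CpG ratio had a median of 0.818 with a peak and 0.792 without, and ranges overlapped (0.550 to 1.02 and 0.171 to 1.03). GC content had medians of 59.2% and 56.5%. Divided into 3 classes by GC content, 4 of 29 (13.8%, 3.89 to 31.7%), 7 of 28 (25%, 10.7 to 44.9%) and 13 of 29 members (44.8%, 26.4 to 64.3%) had a peak, from the lowest to the highest class. In other coding genes of like CpG ratio and the same GC ranges, the shares were 27.9%, 38.5% and 46.9%. The other genes' share lay within the members' interval in each class. The members' share was nearest to it in the most GC-rich class.

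Short motifs were searched on both strands within 100 bp of the main TSS. The ETS-family core CGGAAG, recognised by factors such as GABPA, was in 46 of 86 members (53.5%), against 17.2% of all coding promoters and 28.7% of those of like CpG ratio. The YY1 core ATGGCG was in 24 (27.9%, against 10.9% and 17.9%, respectively), and the TATA box TATAAA in 10 (11.6%, against 8.10% and 2.77%). A pyrimidine tract, defined as a C within 5 bp of the main TSS that opens a run of 5 pyrimidines on the coding strand, was in 30 members (34.9%, against 17.6% and 17.9%). The main TSS is an annotated start that was not mapped in these cells, and for 21 members it is not the 5′ end of the gene. A tract not found here need not be missing from the mRNA. The C/EBP-type motif TTNNGNAA was in 12 (14%), a share below that of all coding promoters (22.7%) and close to that of promoters of like CpG ratio (12.3%). Within 250 bp of the main TSS the members' shares were 74.4% for the SP1 core described next, 67.4% for the ETS core, 54.7% for the YY1 core and 39.5% for the C/EBP-type motif, against 54.2%, 28.0%, 20.5% and 49.4% of all coding promoters. A match describes letters in this window, not a bound factor.

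The SP1 core GGGCGG was, of the 6 sequence features searched, the one whose presence went with the largest difference in peak share among the members. It was in 44 members (51.2%), against 41.3% of all coding promoters and 68.6% of those of like CpG ratio. A TET2 peak was found at 18 of the 44 members with it (40.9%, 26.3 to 56.8%) and at 6 of the 42 without it (14.3%, 5.43 to 28.5%). The 2 intervals overlap slightly. In other coding genes of like CpG ratio, the shares were 42.9% with and 40.8% without the motif. The GC content of members with and without the motif had medians of 58.4% and 56.0%. Other coding genes of the same CpG ratio and GC content as these 2 sets had peaks in 40% and 28.9% of cases. In the GC-richest class, 11 of 19 members with the motif and 2 of 10 without it had a peak. In the rest the counts were 7 of 25 and 4 of 32, a division made after the counts had been seen. Other coding genes of like CpG ratio had shares of 45.6% and 48.3% at such GC content, and 33.8% and 33.1% below it. With the motif searched within 250 bp, the counts were 22 of 64 (34.4%, 22.9 to 47.3%) and 2 of 22 (9.09%, 1.12 to 29.2%). The shares standardised on CpG ratio and GC content were 37.4% and 26.4%, both within these intervals.

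Differences were smaller for the other motifs. Peaks were found at 13 of 46 members with the ETS core (28.3%) and 11 of 40 without it (27.5%). In other coding genes of like CpG ratio, these shares were 39.6% and 43.3%. With the YY1 core the count was 6 of 24 (25%) and without it 18 of 62 (29.0%), against 40.8% and 42.5%. For the pyrimidine tract the counts were 6 of 30 (20%, 7.71 to 38.6%) and 18 of 56 (32.1%, 20.3 to 46.0%), against 41.2% and 42.4%. For the C/EBP-type motif they were 4 of 12 (33.3%, 9.92 to 65.1%) and 20 of 74 (27.0%, 17.4 to 38.6%). All of these intervals overlap.

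**Figure D4:**
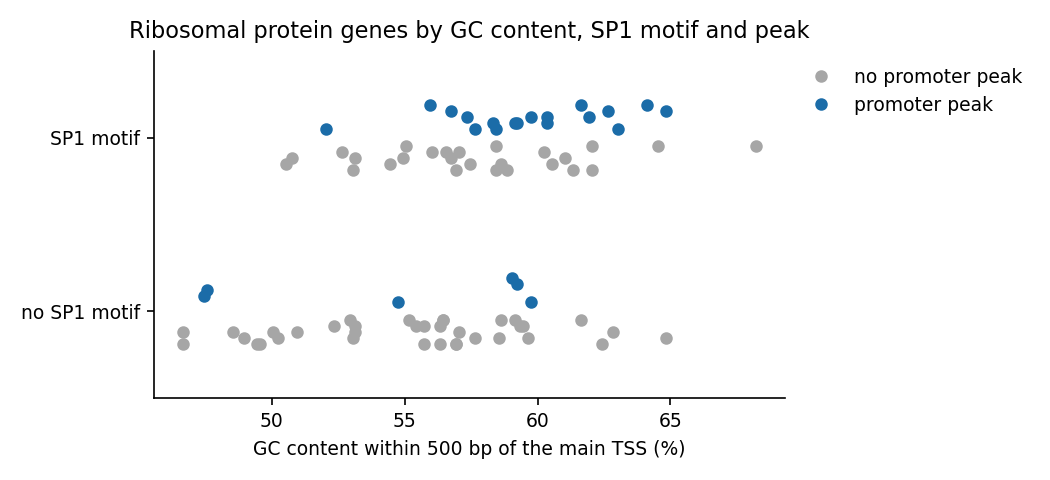
Each point is 1 of the 86 cytosolic ribosomal protein genes, placed by the GC content within 500 bp of its main TSS (x axis, %) and by presence of the SP1 core within 100 bp (rows; vertical spread within a row only separates points). Points in the upper row with a peak number 18 of 44, and in the lower row 6 of 42.

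Processed pseudogenes named after ribosomal proteins carried peaks at a share near that of all processed pseudogenes. Counted were the 294 copies with symbols made of Rpl or Rps, a number and ps. Of these, 3 held a peak midpoint (1.02%, 0.211 to 2.95%), against 178 of 9940 processed pseudogenes in all (1.79%, within that interval). They were Rpl36-ps3 with a −log10 p of 8.46, Rpl13-ps1 with 8.10 and Rpl18-ps2 with 6.18. By any overlap, 6 copies were touched (2.04%), against 2.78%. Copies under other symbols were not counted among the 294. The 294 span 176 kb in total and the 9940 span 7894 kb, and the comparison was not matched for length.

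Promoter peaks were also counted in 3 other groups of genes for large complexes and for translation. Of 78 mitochondrial ribosomal protein genes, which encode the separate ribosome of that organelle, 24 had a promoter peak (30.8%, 20.8 to 42.2%), against 37.1% standardised on CpG ratio. For 68 translation factor genes the count was 20 (29.4%, 19.0 to 41.7%), against 38.8%, and for 50 proteasome genes 17 (34.0%, 21.2 to 48.8%), against 34.8%. These intervals overlap that of the cytosolic genes, and differences between the groups were not tested. Of 19 genes of Diamond-Blackfan anaemia, an inherited red cell aplasia, 4 had a promoter peak (21.1%, 6.05 to 45.6%), against 39.1% standardised, namely Rpl15, Rpl31, Rps7 and Rpl5.

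Of 18 other genes with TOP mRNAs, 6 had a peak (33.3%, 13.3 to 59.0%), against 42.0% standardised. The highest value was 12.7 at Eif3f, a subunit of initiation factor 3, followed by Vim (7.91), Naca (7.07) and Nap1l1 (6.90). Of 20 genes of RNA polymerase I and its factors, which transcribe ribosomal RNA, 3 had a peak (15%, 3.21 to 37.9%), against 36.3% standardised. These were Polr1d (9.66), Taf1b and Taf1d (both 7.34). Of 45 genes for snoRNP proteins and rRNA processing, 18 had a peak (40%, 25.7 to 55.7%), against 39.9%. The highest were Riok1 (10.7), Bop1 (10.5), Rrp9 (9.59) and Eif6 (9.09). The Bop1 peak lies at an alternative start 23338 bp from its main TSS, and those of Riok1, Rrp9 and Eif6 are also within 1 kb of the starts of Cage1, Parp3 and Gm16098. The Polr1d and Taf1d peaks likewise lie near the starts of Lnx2 and 4931406C07Rik. Of 14 known regulators of ribosomal protein genes, 8 had a peak (57.1%, 28.9 to 82.3%), against 39.2%. Larp1, which holds TOP mRNAs, had the highest value (10.1), at an alternative start 33534 bp from its main TSS, followed by Gabpa (8.32), Tbpl1 (8.31) and Tbp (7.94). The peaks of Gabpa and Tbp also lie within 1 kb of the starts of Atp5j and Psmb1.

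The count in cytosolic ribosomal protein genes was then taken under other definitions of a promoter peak. With the window at 500 bp the share was 26.7% (standardised 35.3%), at 2 kb 29.1% (41.9%), and from the main TSS alone 27.9% (35.8%). With a peak that had to cover a TSS it was 20.9% (12.9 to 31.0%), against 26.6%. Of the 13 other definitions, 2 were added after the data were seen, namely those without X-linked genes and without members whose peak lies near another coding TSS. In all 13 the members' share was below the share standardised on CpG ratio, and in 6 of them the latter lay above the members' interval.

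**Figure D5:**
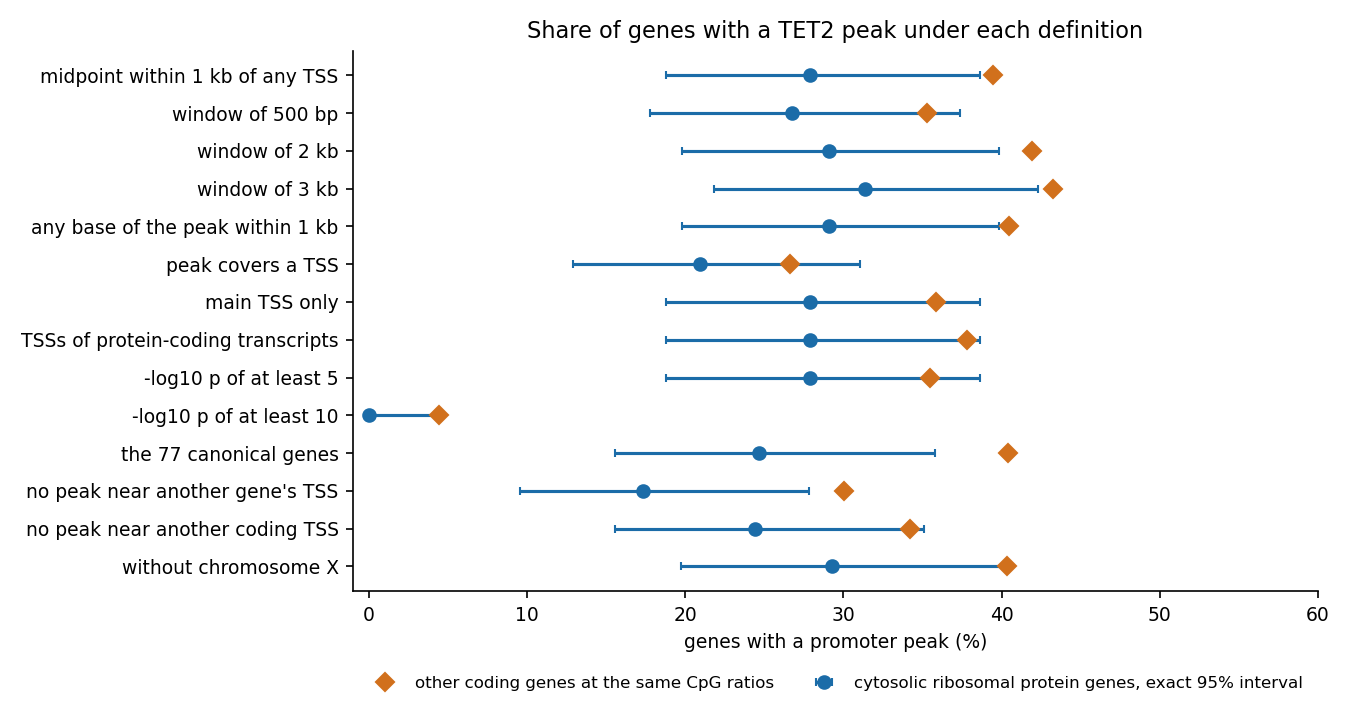
Percentage of cytosolic ribosomal protein genes with a TET2 promoter peak (circles, bars are exact 95% binomial intervals) and of other coding genes standardised to the same CpG ratios (diamonds), for the main definition (top) and 13 others. Circles lie to the left of diamonds in every line, and the bar ends before the diamond in 6 of the 13 others.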

How the data were processed

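TET2 ChIP-seq and input libraries came from adipose-derived stem cells differentiated into adipocytes. The authors removed poor-quality reads and adapters, aligned with Bowtie and called peaks with MACS2 (2.1.0, per the submitters' processing notes) against the input. The deposited peak list gives each interval and its −log10 p, which runs from 3.07, below the cutoff stated in the study's reporting summary. The labels name mm10, while the methods name GRCm39. Coordinates were read as GRCm38, the assembly of mm10: no peak exceeded a chromosome end, and 2 held an unknown base. The list gives no read totals, so depth is unknown.

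Main TSSs came from the principal GENCODE M21 transcripts and sequences from the GRCm38 RefSeq assembly. The members and gene lists were chosen with earlier results of these data known. Genes were named by a rule: each member with a promoter peak, 8 members of known role, members with gene-body peaks only, the 3 unbound members of highest CpG ratio, and up to 4 genes of other lists. Some items are not reported here by name. The text goes outside it for Rpl7, Rpl18, Rpl35, Rps23, the parents of the paralogues and the printed start sites, which were added after their values were seen. Intervals are exact Clopper-Pearson at 95%. With 1 library, no test was made. Computations used Python 3.11.15, pandas 2.3.3, scipy 1.17.1, pysam 0.24.0 and blastn 2.17.0 (megablast, word size 20), and the standardisation was checked on simulated data. Alternatives changed the window, the reference TSS, the −log10 p minimum, the CpG groups and the members included.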

Additional observations from a re-analysis of the deposited data

How the results depend on the processing

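No paired analysis was possible because each group has 1 library. Of 47 alternative values, 33 stayed near the reported one and 14 moved. None reversed, but most of these values are shares or counts, which cannot change sign. A members' share of 20.9% counted as near 27.9%, while a standardised share had to stay within 10% of its value. The share of members with a promoter peak moved from 27.9% to 0 at a −log10 p of at least 10, and to 17.3% without members whose peak lies within 1 kb of another gene's TSS, which removes 11 of the 24 by construction. The standardised share of other coding genes moved from 39.5% to 35.5% at a −log10 p of at least 5 and to 4.44% at 10. It moved to 34.6% with CpG ratio and GC content, to 29.3% with GC content alone and to 34.6% with CpG ratio and gene length, all added after the data were seen. The median offset of 237 bp became 81 bp from the nearest TSS and 11 bp from the nearest peak edge. With motifs searched within 250 bp in place of 100 bp, the share of members rose from 51.2% to 74.4% for SP1, from 53.5% to 67.4% for ETS, from 27.9% to 54.7% for YY1 and from 14% to 39.5% for C/EBP. Pseudogenes with a peak rose from 3 to 6 by any overlap. The list has no read depth, so an absent peak means only that none was called.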
